A study of Mus musculus with 8 samples.

Results

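The citric acid cycle and the breakdown of branched-chain amino acids were examined through 40 genes, given as a fixed list of symbols. They covered the cycle, the entry of pyruvate into it, the malate-aspartate shuttle and the catabolism of leucine, isoleucine and valine. The list was chosen with earlier results of these data known, so its share of called genes is not independent of them. All 40 were found among the 16382 named genes measured by bulk RNA-seq. The soleus, a postural calf muscle, was taken whole from 4 Megf10 KO (Megf10 -/-) and 4 WT female mice at 7 months of age, with 1 library per mouse and no treatment named. KO mice were homozygous for the tm1b allele of Megf10, which lacks exon 4. The deletion is constitutive and not limited to muscle fibers. The strain of the sequenced mice, and whether KO and WT were littermates or were raised at the same site, was not given in the sources used here. The gene itself was low in the KO libraries (1.55, 7.76, 1.12 and 11.1 normalized counts) and did not overlap the WT libraries (63.0, 57.1, 69.7 and 70.04). Sets of 4 values are given in the order of replicates 1 to 4.

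The citric acid cycle burns acetyl-CoA in the mitochondrial matrix and hands its electrons to the respiratory chain, which makes most of the ATP of a slow, oxidative muscle such as the soleus. Pyruvate from glycolysis enters through a mitochondrial carrier and the pyruvate dehydrogenase complex, and kinases (Pdk) switch that complex off while phosphatases (Pdp) switch it on. Skeletal muscle is also a main site where branched-chain amino acids lose their amino group and pass through a dehydrogenase built and regulated like pyruvate dehydrogenase, and their carbon ends as acetyl-CoA or as succinyl-CoA within the cycle.

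Most transcripts of both pathways were lower in Megf10 KO soleus. Among the 40, 25 genes were called lower and 0 higher (limma on log2 values, Benjamini-Hochberg adjusted p under 0.05). At an unadjusted p under 0.05, 34 were lower and 2 higher, and 36 had a log2 fold change below 0, of which Pdhb, Dlat, Dlst and Sucla2 turned above 0 on another scaling. Over all genes tested 8.95% were called, 3.79% as lower and 5.16% as higher in KO. The falls were small and alike in size. Among the 25 genes log2 fold changes (KO over WT) ran from -0.24 to -0.42, a change of the mean from -15.1 to -25.9%. The median over the 40 genes was -0.29 on the log2 scale and the median over all genes tested was -0.01. Branched-chain amino acid genes fell in 10 of 14 cases (median log2 fold change -0.33) and genes of the cycle, pyruvate entry and the shuttle in 15 of 26 (median -0.25). Each KO library lay below each WT library for 28 of the 40 genes, against 8.54% of all genes, and above each WT library for 2 genes, Pdk1 and Hibch, against 8.63% of all genes.

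**Figure D1:**
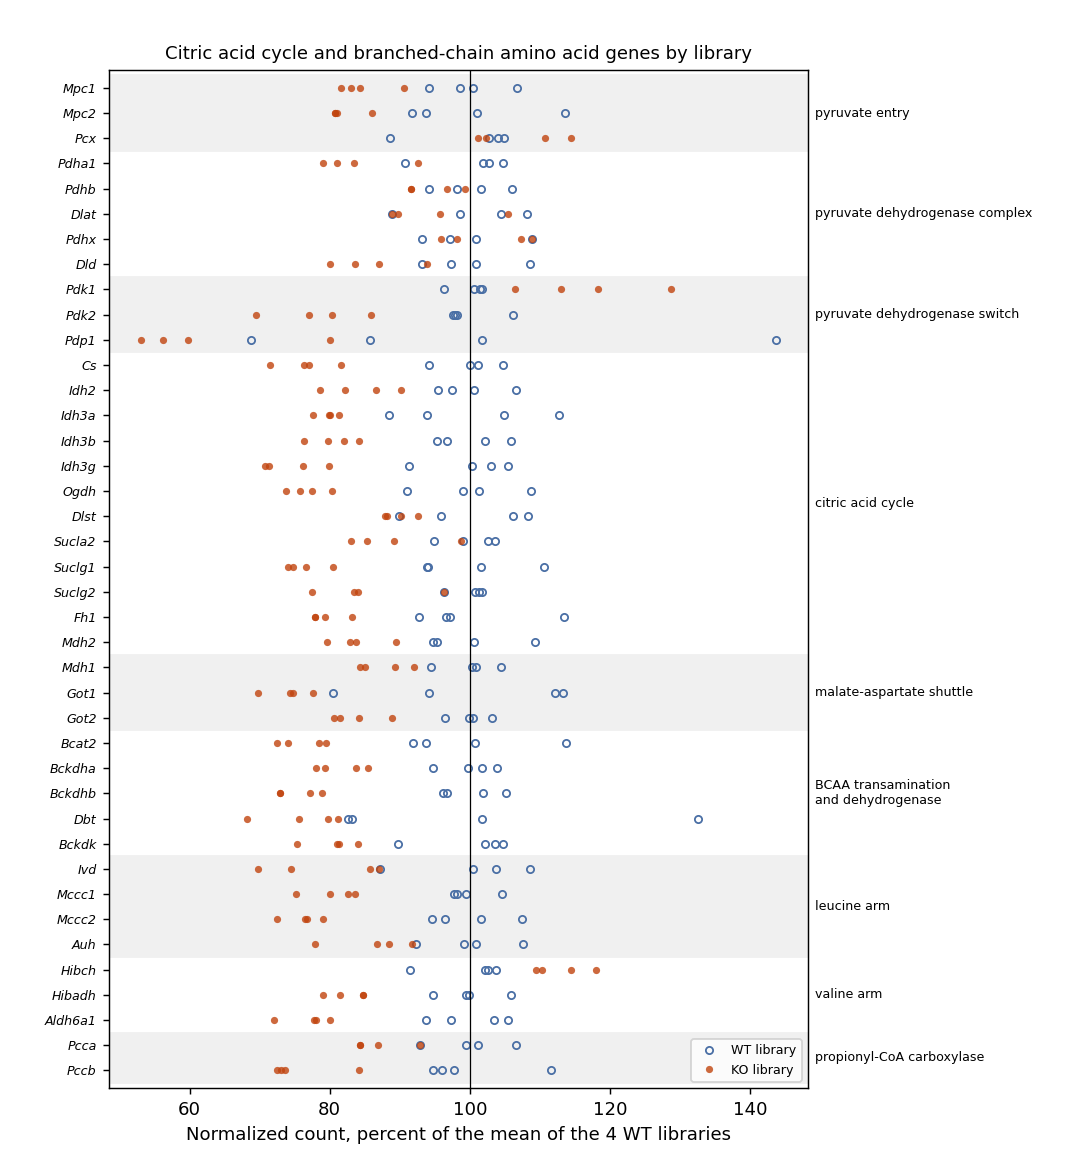
Normalized count of each of the 40 genes (rows, grouped by role) as a percent of the mean of the 4 WT libraries, with filled points for KO libraries and open points for WT libraries. For 28 genes all KO points lie left of all WT points, and for Pdk1 and Hibch all lie right of them.

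The plot of values by library shows how narrow these differences were and how little the libraries scattered. The median coefficient of variation of the 40 genes was 4.64% over the KO libraries and 6.23% over the WT libraries. Pdp1 had the widest scatter in both genotypes, at 19.5% in KO and 32.1% in WT. As the median over the 40 genes, KO replicates 1 to 4 stood at 81.5, 83.4, 79.9 and 81.3% of the WT mean, and WT replicates 1 to 4 at 97.1, 94.8, 104.9 and 100.9%. The 40 genes together took 1.29 to 1.40% of each KO library and 1.48 to 1.59% of each WT library.

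Calls depended on the reference level and on the libraries kept. With library size alone as the scaling 18 genes were called lower (1.96% of all genes) and 2, Pdk1 and Hibch, higher (7.81% of all genes). When libraries were scaled on the fiber transcripts Acta1, Ckm and Mb, which shifted the median of all genes to 0.16, 3 genes were called lower (Bckdhb, Idh3g and Suclg1, against 0.983% of all genes) and 3 higher (Pcx, Pdk1 and Hibch, against 14.2%). This reference was itself not level between genotypes. With the deposited scaling Ckm was called lower in KO (log2 fold change -0.27), and Mb (-0.16) and Acta1 (-0.08) were below 0 without passing. The median of the 40 genes minus that of all genes was -0.28, which a change of scaling leaves nearly fixed by construction, since it shifts all genes of a library alike. None of the 25 called genes changed sign under any setting tried.

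Depth moved with genotype. KO replicates 2 to 4 held 26.0 to 26.4 M reads, and KO replicate 1 and the WT libraries 36.8 to 41.6 M, as recovered from the spacing of low values. With depth as a covariate none of the 40 genes passed in limma (0.0855% of all genes were called lower), and 22 were lower at an unadjusted p under 0.05, with a median log2 fold change of -0.29 and standard errors 1.70 times as large. KO replicates 2 and 3 held far more Myh4, the type IIb myosin, than the other libraries (KO 929.5, 18638, 43384 and 459.5 normalized counts, WT 746, 911, 818 and 3625). Without both none of the 40 passed in limma (0.262% of all genes were called lower), and 31 were lower at an unadjusted p under 0.05, with a median log2 fold change of -0.30 and standard errors 1.28 times as large. The mean of KO replicates 2 and 3 was below that of KO replicates 1 and 4 for 15 of the 40 genes.

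Of the 25 called genes, 14 remained called whichever single library was left out, and 11 did not (Bckdk, Fh1, Got1, Got2, Idh2, Idh3a, Ivd, Mdh2, Mpc1, Mpc2 and Pdha1). Without KO replicate 3 alone 15 of the 40 genes were called lower (243 of all genes), and without WT replicate 4 alone 16 (338 of all genes).

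**Figure D2:**
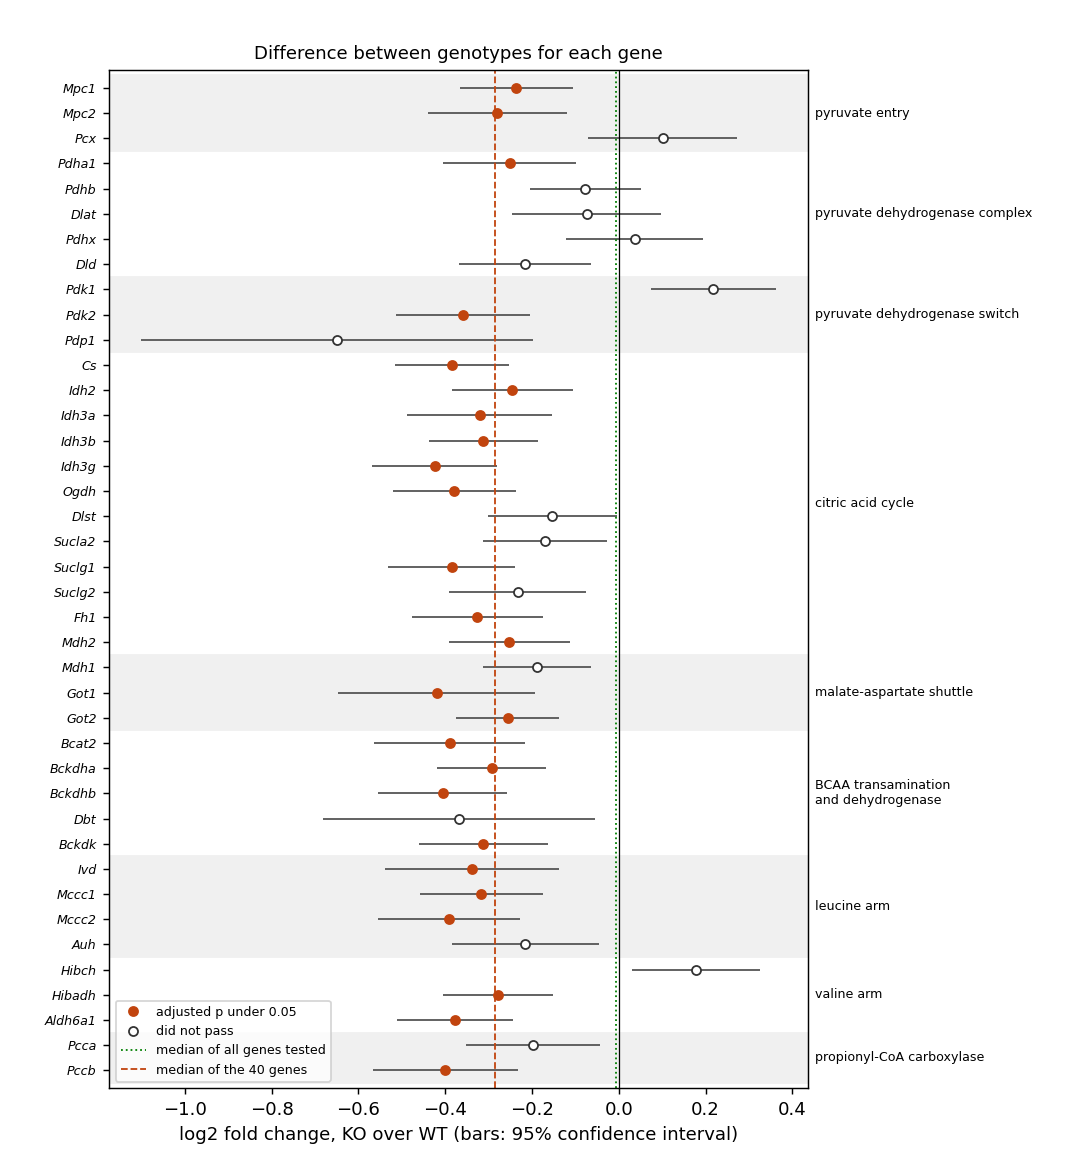
Log2 fold change of KO over WT for each gene with its 95% confidence interval (limma, n = 4 per genotype). Filled points passed an adjusted p of 0.05, the dashed line is the median of the 40 genes (-0.29) and the dotted line that of all genes tested (-0.01); all 25 filled points lie below 0, and of the open points Pdhb, Dlat, Dlst and Sucla2 turned above 0 when libraries were scaled on Acta1, Ckm and Mb.

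Whole muscle also holds cells other than fibers, and their transcripts moved with genotype. In bulk samples fewer cells of a type and less RNA per cell cannot be told apart. Of 7 adipocyte markers 6 rose and the summed markers had 13088 to 22851 normalized counts in KO and 8586 to 11155 in WT. Of 7 macrophage markers 4 rose (sums of 2403 to 3186 in KO and 1377 to 2064 in WT), and of 6 fibroblast markers 3 rose (22213 to 32164 and 17349 to 19883). Of 5 endothelial markers 1 fell (8228 to 10286 and 9938 to 12069), and of 4 satellite cell markers 2 fell (113 to 233 and 364 to 489.9). Summed Schwann cell markers had 613 to 881 in KO and 817 to 1093 in WT, and tendon markers 1274 to 1654 and 906 to 1274. No marker of these lists was at 0 in any library, and their part in the lower levels of the 40 genes was not tested.

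Fiber transcripts that mark the soleus were present in every library, with at least 523820 normalized counts of Myh7 and 56664 of Tnni1, both of slow fibers. Of 7 fiber markers 2 fell and 1, Tnni1 (slow troponin I), rose by 0.37 on the log2 scale (limma adjusted p = 0.0335). Acta1 (skeletal actin) had a log2 fold change of -0.08 (limma adjusted p = 0.611) and Mb (myoglobin) -0.16 (0.189), while Ckm (muscle creatine kinase) fell by 0.27 (0.0315). The fiber type myosins were uneven. Myh2, the type IIa myosin, fell by 0.89 on the log2 scale (limma adjusted p = 0.00144), with 221374 to 283412 normalized counts in KO and 415478 to 498448 in WT. Myh7, the slow type I myosin, had 0.23 (limma adjusted p = 0.134). Its call depended on the setting. Myh7 passed as higher with library size alone (0.31, limma adjusted p = 0.0456) and on Acta1, Ckm and Mb (0.40, 0.00883). It also passed without WT replicate 2 (0.32, limma adjusted p = 0.0280), but in no other fit that left out 1 library. Myh1, the type IIx myosin, had -0.05 (limma adjusted p = 0.929). Myh4 had 1.86 (0.400), which was -0.87, also short of the threshold, without KO replicates 2 and 3. The summed fiber markers had 2384120 to 2557720 in KO and 2593720 to 2875730 in WT. Myh2 is 1 of the 7 markers summed and had the largest log2 fall among them, with means of 250796 in KO and 461238 in WT. Of the 7, 4 had a log2 fold change below 0. Myh7, also in the sum, had means of 671650 in KO and 573873 in WT.

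**Figure D3:**
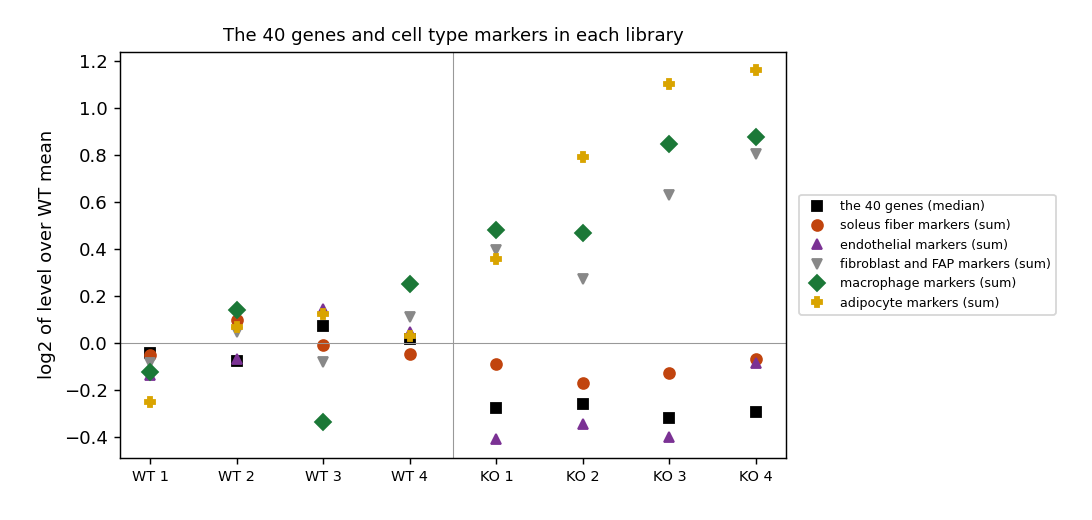
Log2 of each library's level over the WT mean (vertical axis) for the median of the 40 genes (squares) and for the summed markers of fibers, endothelium, fibroblasts, macrophages and adipocytes. The 40 genes lie at -0.26 to -0.32 in the KO libraries and at -0.08 to 0.07 in the WT libraries, and the adipocyte, macrophage and fibroblast sums are higher in every KO library than in every WT library.

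Promoter sequence is shown for 3 genes with some of the largest falls, so that the start regions of genes that fell together can be read side by side. In RefSeq (GRCm38.p6), 37 of the 40 genes had a promoter entry, and Dbt, Idh3a and Pdp1 were not matched. The 250 bases before each start were searched on both strands for letters typical of factors tied to mitochondrial genes. The CCAAT box of NF-Y, GCCAAT, was found for 14 of 37 genes (37.8%), against 15.3% of 27025 genes with a promoter entry. These were searched in the same way and were not limited to the genes measured here. The NRF1 core TGCGCA was found for 5 (13.5%, against 7.36%), the ETS letters CCGGAAG of GABPA for 3 (8.11%, against 7.83%), and the nuclear receptor half-site AAGGTCA for 1 (2.70%, against 4.70%). TNAAGGTCA, the estrogen-related receptor element, which contains that half-site, was found for 0 of 37 and for 1.30% of the 27025 genes. Such a match describes the letters in the window and was not tested as a binding site. The 3 called genes with the largest log2 falls among those whose window held a match follow, 5′ to 3′ on the strand of the gene, with matches in capitals. Idh3g (chrX:73786898-73787147, minus strand) has the ETS letters from 104 bases before the start, Got1 (chr19:43524606-43524855, minus strand) the half-site from 245 bases before it and CCAAT boxes from 153 and 64 bases before it (the second on the opposite strand), and Pccb (chr9:101034885-101035134, minus strand) the NRF1 core from 36 bases before it.
Idh3g: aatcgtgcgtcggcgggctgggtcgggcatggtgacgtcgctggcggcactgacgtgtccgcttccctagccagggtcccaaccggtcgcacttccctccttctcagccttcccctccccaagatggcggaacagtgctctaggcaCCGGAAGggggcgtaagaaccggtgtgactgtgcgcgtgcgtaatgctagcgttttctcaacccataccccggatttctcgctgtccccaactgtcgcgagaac
Got1: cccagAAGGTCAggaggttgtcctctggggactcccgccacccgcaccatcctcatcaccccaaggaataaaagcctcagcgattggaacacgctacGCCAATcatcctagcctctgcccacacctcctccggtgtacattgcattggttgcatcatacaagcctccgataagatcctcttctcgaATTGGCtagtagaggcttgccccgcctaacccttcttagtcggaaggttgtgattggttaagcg
Pccb: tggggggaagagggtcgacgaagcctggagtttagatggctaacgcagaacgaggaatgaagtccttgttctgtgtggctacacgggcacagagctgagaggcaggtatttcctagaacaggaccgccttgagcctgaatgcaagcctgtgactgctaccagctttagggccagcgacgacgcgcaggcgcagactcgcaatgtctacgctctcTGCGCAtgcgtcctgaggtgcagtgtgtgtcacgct

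Among transcripts for the entry of pyruvate, those of its carrier fell. Mpc1 and Mpc2 encode the partners of the mitochondrial pyruvate carrier. Mpc1 had 9961, 9813, 10694 and 9639 normalized counts in KO and 11645, 11127, 12603 and 11861 in WT. Mpc2 had 5874, 5893, 6254 and 5878 in KO and 6669, 6822, 8263 and 7348 in WT. For both genes the highest KO library lay below the lowest WT library, and WT replicate 3 was the highest of all. Log2 fold changes were -0.24 (SE 0.0588) and -0.28 (SE 0.0722), with limma adjusted p = 0.0338 and 0.0385 (Benjamini-Hochberg). Pcx, pyruvate carboxylase, which refills the cycle with oxaloacetate, had 0.10 (limma adjusted p = 0.455), and its KO libraries (1771 to 2003) overlapped the WT libraries (1550.2 to 1835).

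The pyruvate dehydrogenase complex itself changed in 1 of 5 genes. Pdha1, the alpha subunit of its E1 enzyme and the site that the Pdk kinases phosphorylate, had 26771, 31377, 27469.5 and 28258 normalized counts in KO and 34482, 30711, 34804 and 35489 in WT. KO replicate 2 lay above WT replicate 2, so that Pdha1 was the one called gene of the 25 whose genotypes overlapped. Its log2 fold change was -0.25 (SE 0.0691, limma adjusted p = 0.0477), the adjusted p nearest to the threshold among the 25. Its partner Pdhb, the E2 core enzyme Dlat and the E3 binding protein Pdhx had -0.08, -0.07 and 0.04 (95% confidence intervals -0.20 to 0.05, -0.25 to 0.10 and -0.12 to 0.19), did not pass and overlapped between genotypes. Dld, the E3 enzyme shared with the 2-oxoglutarate and branched-chain dehydrogenases, had -0.22 (limma adjusted p = 0.0767).

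Of the kinases that switch the complex off, Pdk2 fell and Pdk1 did not pass. Pdk2, found in many tissues, had 16009, 12935, 14348 and 14978 normalized counts in KO and 19788, 18196, 18302 and 18248 in WT. All KO libraries were lower, and WT replicate 1 was above the other WT libraries. Pdk2 fell by 0.36 on the log2 scale (SE 0.0699, limma adjusted p = 0.0117). Pdk1, a kinase that hypoxia signalling is known to raise, had 5850.0 to 7072 normalized counts in KO and 5293 to 5588 in WT, with no overlap, and did not pass (log2 fold change 0.22, adjusted p = 0.0647). Within each library the ratio of Pdk1 to Pdk2 was 0.442, 0.480, 0.453 and 0.391 in KO and 0.268, 0.306, 0.302 and 0.306 in WT. A factor common to the whole library cancels in this ratio. It was 0.58 higher in KO on the log2 scale (exact permutation test, two-sided p = 0.0286, the smallest that 4 against 4 allows, adjusted p = 0.0714 over 25 ratios). The 25 ratios were chosen after values had been seen. Their p-values, here and below, describe how far the groups were apart and are not a test.

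Pdk4, the kinase that fasting and fatty acids raise in muscle, differed among mice of the same genotype more than between genotypes. It had 71776, 53163, 51098 and 55343 normalized counts in KO and 42392, 36049, 73138 and 78344 in WT. WT replicates 1 and 2 were the lowest of the 8 libraries and WT replicates 3 and 4 the highest. Its log2 fold change was 0.08 (limma adjusted p = 0.874). Pdp1, the calcium-sensitive phosphatase that switches the complex on, had 1027 to 1547 in KO and 1329 to 2781 in WT, overlapped between genotypes and did not pass (log2 fold change -0.65, adjusted p = 0.0741). It passed when WT replicate 3 was left out (-0.81, limma adjusted p = 0.0384).

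Transcripts of the citric acid cycle fell from its first step. Cs, citrate synthase, whose enzyme activity is the usual measure of mitochondrial content in muscle, had 23646, 25304, 22144 and 23888 normalized counts in KO and 31005, 29186, 31346 and 32473 in WT. All KO libraries lay below all WT libraries, and Cs fell by 0.39 on the log2 scale (SE 0.0594, limma adjusted p = 0.00425). Set against fiber transcripts in the same library the difference was smaller and depended on the transcript. The log2 ratio of Cs to Mb was 0.22 lower in KO with no overlap (exact permutation p = 0.0286, adjusted 0.0714), that of Cs to Ckm 0.12 lower with overlap (p = 0.171, adjusted 0.226) and that of Cs to Acta1 0.31 lower with overlap (p = 0.0571, adjusted 0.119). In the last, KO replicate 2 lay among the WT libraries and the other 3 KO libraries lay below them.

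All 4 isocitrate dehydrogenase genes of the list fell. Idh3a, Idh3b and Idh3g encode the subunits of the NAD-linked enzyme of the cycle, and Idh2 the NADP-linked mitochondrial enzyme. Idh3g had 8801, 9936, 8863 and 9473 normalized counts in KO and 12478, 11348, 12811 and 13112 in WT, and at -0.42 (SE 0.0651, limma adjusted p = 0.00415) it had the largest log2 fall of the 25 called genes and the smallest adjusted p. Idh3a had 10749, 11267, 11088 and 11064 in KO and 12993, 12251, 15612 and 14526 in WT. The KO libraries of Idh3a were close together, and the WT libraries were spread out above them. Idh3b had 13988, 15420.5, 14594 and 15012 in KO and 17726, 17459, 19379 and 18697 in WT. Idh2 had 56138, 61583, 53727 and 59103 in KO and 72793, 65136, 66512 and 68702 in WT. No KO library of Idh3b or Idh2 reached a WT library, although KO replicate 2 of Idh2 came near WT replicate 2. Log2 fold changes were -0.32 for Idh3a, -0.31 for Idh3b and -0.25 for Idh2 (SE 0.0753, 0.0569 and 0.0633, and limma adjusted p = 0.0262, 0.00897 and 0.0385).

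At the 2-oxoglutarate dehydrogenase complex the transcript of the first enzyme fell and that of the core enzyme did not pass. Ogdh, the E1 enzyme that binds 2-oxoglutarate, had 34699, 33956, 33043 and 35987 normalized counts in KO and 45390.2, 40797, 44398 and 48722 in WT. The highest KO library was below the lowest WT library, and Ogdh fell by 0.38 on the log2 scale (SE 0.0640, limma adjusted p = 0.00609). Dlst, the E2 core, had 10504 to 11068 in KO and 10740.1 to 12945 in WT, and its log2 fold change was -0.15 (adjusted p = 0.182). Within libraries the log2 ratio of Dlst to Ogdh was 0.23 higher in KO with no overlap (exact permutation p = 0.0286, adjusted 0.0714).

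Succinyl-CoA synthetase, which turns succinyl-CoA into succinate and makes ATP or GTP, consists of a shared alpha subunit (Suclg1) and a beta subunit for ATP (Sucla2) or GTP (Suclg2). Suclg1 had 5544, 6020.4, 5595 and 5739 normalized counts in KO and 7023, 7034, 8278 and 7608 in WT. WT replicate 3 was the highest, no library overlapped, and Suclg1 fell by 0.38 on the log2 scale (SE 0.0662, limma adjusted p = 0.00675). Suclg2 (-0.23, adjusted p = 0.0673) and Sucla2 (-0.17, adjusted p = 0.131) did not pass. The log2 ratio of Sucla2 to Suclg1 was 0.21 higher in KO with no overlap (exact permutation p = 0.0286, adjusted 0.0714), and that of Sucla2 to Suclg2 was 0.06 higher with overlap (p = 0.0857, adjusted 0.143).

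Transcripts for the last steps of the cycle fell too. Fh1, fumarase, had 7603, 8123, 7599 and 7741 normalized counts in KO and 9049, 9428, 11068 and 9487 in WT. Mdh2, the mitochondrial malate dehydrogenase, had 25316, 27322, 24314 and 25609.6 in KO and 28962, 29141, 33372 and 30742 in WT. KO replicate 2 was the highest KO library and WT replicate 3 the highest WT library for both, with no overlap. Fh1 fell by 0.33 and Mdh2 by 0.25 on the log2 scale (SE 0.0686 and 0.0635, limma adjusted p = 0.0167 and 0.0351). With the cycle enzymes given before, 9 of its 12 listed genes fell and all 12 were below 0, of which Dlst and Sucla2 turned above 0 on the fiber transcripts.

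For the malate-aspartate shuttle, which carries the electrons of cytosolic NADH into mitochondria, the transcripts of the transaminases fell. Got1, the cytosolic aspartate aminotransferase, had 17710.0, 15922, 16972 and 17068 normalized counts in KO and 21496, 18363, 25617 and 25874 in WT. The KO libraries were tight, while the WT libraries spread widely, with replicates 3 and 4 the highest and replicate 2 only just above KO replicate 1. Got2, its mitochondrial partner, had 28292, 25646, 25943 and 26763 in KO and 30703, 31799, 32828 and 31948 in WT, with no overlap, and its processed copy Got2-ps1, with which it could share reads, had a mean of 7.58 normalized counts. Log2 fold changes were -0.42 (SE 0.102) and -0.26 (SE 0.0535), with limma adjusted p = 0.0303 and 0.0161. Mdh1, the cytosolic malate dehydrogenase, was lower in each KO library (37863 to 41314) than in each WT library (42395 to 46885) but did not pass (-0.19, adjusted p = 0.0624).

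Transcripts for the entry into branched-chain amino acid breakdown fell. Bcat2, the mitochondrial aminotransferase that takes the amino group from all 3 amino acids, had 1835, 2013, 1987 and 1875 normalized counts in KO and 2374, 2325, 2878 and 2551 in WT. No KO library reached a WT library, and Bcat2 fell by 0.39 on the log2 scale (SE 0.0785, limma adjusted p = 0.0137). The E1 subunits of the branched-chain dehydrogenase, which commits the carbon to breakdown, were both lower. Bckdha had 4983, 5373, 4902 and 5259 in KO and 6391, 5951, 6522 and 6263 in WT. Bckdhb had 1133, 1157, 1069 and 1069 in KO and 1411, 1542, 1495 and 1419.8 in WT. The groups of both genes were tight and apart. Bckdha fell by 0.29 and Bckdhb by 0.41 on the log2 scale (SE 0.0570 and 0.0675, limma adjusted p = 0.0117 and 0.00583).

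Dbt, the E2 core of the branched-chain dehydrogenase, had 959.7, 1124, 1144 and 1064 normalized counts in KO and 1163, 1171, 1866 and 1433 in WT. Each KO library was below each WT library, but WT replicates 1 and 2 lay just above the KO libraries and WT replicate 3 far above. Dbt did not pass (log2 fold change -0.37, SE 0.142, limma adjusted p = 0.133). Bckdk, the kinase that switches the dehydrogenase off, had 4227, 4089.8, 3788 and 4073 in KO and 5261, 4508, 5204 and 5136 in WT, where replicate 2 was low but above each KO library. It fell by 0.31 on the log2 scale (SE 0.0670, limma adjusted p = 0.0179). Ppm1k, the phosphatase that switches the dehydrogenase on, had 637, 543, 421 and 664 in KO and 1282, 1116, 1164 and 847 in WT. All KO libraries were below all WT libraries, and its fall of 0.97 on the log2 scale (SE 0.162, limma adjusted p = 0.00604) was larger than that of any of the 25 called genes.

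The log2 ratio of the kinase to the E1 subunit, Bckdk to Bckdha, differed by -0.02, less than its spread (exact permutation p = 0.743, adjusted 0.743, SD 0.0712 in KO and 0.0553 in WT, n = 4). That of Ppm1k to Bckdk was 0.65 lower in KO with no overlap (exact permutation p = 0.0286, adjusted 0.0714). Klf15, a transcription factor known to raise branched-chain amino acid genes in muscle, had 1483, 2359, 2147 and 2279 normalized counts in KO and 2332, 2268, 2472 and 2714 in WT. KO replicate 1 was the lowest and the other KO libraries lay near the WT libraries, with a log2 fold change of -0.26 (limma adjusted p = 0.254). The size depended on that library and on depth, with -0.11 (0.447) without KO replicate 1 and -0.74 (0.0458) with depth as a covariate, where it passed.

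**Figure D4:**
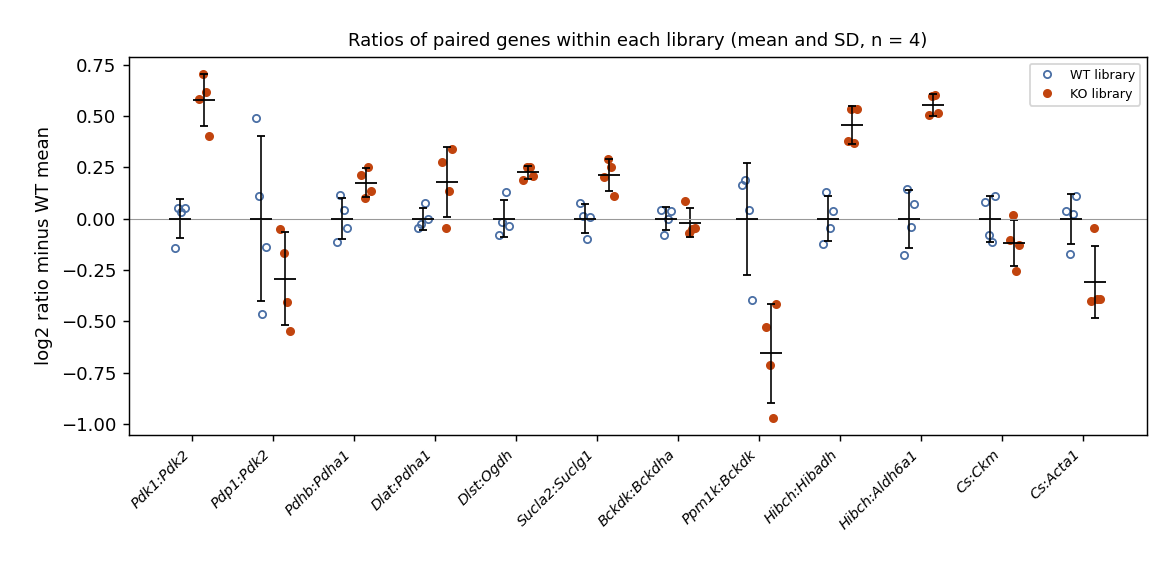
Log2 ratio of paired genes within each library, minus the WT mean (vertical axis), with filled points for KO and open points for WT libraries and bars for mean and SD (n = 4). Pdk1:Pdk2, Dlst:Ogdh, Sucla2:Suclg1, Hibch:Hibadh and Hibch:Aldh6a1 are higher in all KO libraries, Ppm1k:Bckdk is lower in all, and Bckdk:Bckdha is near 0 in both.

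The leucine arm fell in 3 of 4 genes. Ivd, isovaleryl-CoA dehydrogenase, had 6671, 8328, 7125 and 8198 normalized counts in KO and 8339, 9929, 10386 and 9609 in WT. WT replicate 1 was the lowest WT library and only just above KO replicate 2. Mccc1 and Mccc2 encode the subunits of methylcrotonyl-CoA carboxylase. Mccc1 had 1436, 1595, 1576 and 1527 in KO and 1998, 1866, 1899.8 and 1873 in WT. Mccc2 had 849, 825, 778 and 821 in KO and 1015, 1091, 1154 and 1035 in WT. Both subunits had their groups clearly apart. Log2 fold changes were -0.34, -0.32 and -0.39 (SE 0.0906, 0.0638 and 0.0741, limma adjusted p = 0.0438, 0.0137 and 0.0105). Auh, the hydratase of the next step, did not pass though its groups were apart (-0.22, adjusted p = 0.107).

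In the valine arm 2 of 3 genes fell. Hibadh, which oxidizes 3-hydroxyisobutyrate, a metabolite that muscle can release, had 4066, 3904, 4062 and 3790.2 normalized counts in KO and 4788, 4547, 5079.6 and 4772 in WT. Aldh6a1, methylmalonate semialdehyde dehydrogenase, had 5858, 5878, 5427 and 6029.7 in KO and 7789, 7062, 7935 and 7329 in WT. Every KO library was below every WT library for both genes, and they fell by 0.28 and 0.38 on the log2 scale (SE 0.0574 and 0.0604, limma adjusted p = 0.0153 and 0.00506). Hibch, the hydrolase that forms 3-hydroxyisobutyrate just upstream of both, had 1855 to 2001 in KO and 1552 to 1759 in WT. Its groups did not overlap, with KO higher, but it did not pass (0.18, adjusted p = 0.124). Within libraries the log2 ratio of Hibch to Hibadh was 0.46 higher and that of Hibch to Aldh6a1 0.55 higher in KO, each with no overlap (exact permutation p = 0.0286 and adjusted 0.0714 for each).

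For propionyl-CoA carboxylase, where the carbon of valine and isoleucine turns toward succinyl-CoA, the transcript of 1 of its 2 subunits fell. Pccb, the beta subunit whose promoter is shown with those of Idh3g and Got1, had 2703, 2728, 2746 and 3141 normalized counts in KO, where replicate 4 stood above the others, and 3584, 3535, 3647 and 4166 in WT. No library overlapped, and Pccb fell by 0.40 on the log2 scale (SE 0.0756, limma adjusted p = 0.0104). Pcca, the alpha subunit, had -0.20 (adjusted p = 0.105), and its groups overlapped by less than 1 normalized count between KO replicate 2 and WT replicate 2. The log2 ratio of Pcca to Pccb was 0.20 higher in KO with overlap (exact permutation p = 0.0857, adjusted 0.143).

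Other genes of the same pathways moved both ways. Of 30 further genes of the cycle, pyruvate and the shuttle, 10 fell and 5 rose, and the median log2 fold change of -0.05 turned to 0.03 with library size alone and 0.12 on the fiber transcripts. The balance moved with the scaling too, to 7 lower and 7 higher with library size alone (1.96 and 7.81% of all genes). On the fiber transcripts 3 were lower and 8 higher (0.983 and 14.2% of all genes). The median of all genes moved as well, from -0.01 to 0.07 with library size alone and 0.16 on the fiber transcripts. Without KO replicates 2 and 3, 2 were lower and 0 higher in limma (11 and 5 at an unadjusted p under 0.05). With depth as a covariate 0 were called in limma (11 lower and 2 higher at an unadjusted p under 0.05). Sdha and Sdhc encode subunits of succinate dehydrogenase. Sdha had 26757.5, 29057, 26175 and 28647 normalized counts in KO and 39303, 34456, 35017 and 39708 in WT. Sdhc had 11658, 11952, 10939.9 and 11281 in KO and 14796, 13539, 15793 and 14575 in WT. The genotypes were apart in both, and Sdha and Sdhc fell by 0.42 and 0.36 on the log2 scale (limma adjusted p = 0.00483 and 0.00632). Slc25a12, the aspartate-glutamate carrier of the shuttle in muscle, had 11115, 11590.2, 10367 and 10816 in KO and 15174, 14268, 14767 and 14866 in WT, and fell by 0.43 (limma adjusted p = 0.00188). Gpt, alanine aminotransferase, had 1373, 998, 1110.2 and 1319.8 in KO and 1628, 1738, 1955 and 2149 in WT, and fell by 0.64 (adjusted p = 0.00998).

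Some relatives of genes that fell were higher in KO. Me3, a mitochondrial malic enzyme, had 1174, 1315, 1266 and 1304 normalized counts in KO and 1838, 1615, 1994 and 1774 in WT and fell by 0.51 on the log2 scale (limma adjusted p = 0.00445). Its relative Me2 rose by 0.78 (adjusted p = 0.0150), with 226 to 318 in KO and 129 to 177 in WT. Slc25a13, the relative of Slc25a12, rose by 0.72 (adjusted p = 0.0144), and Ogdhl, the relative of Ogdh, by 0.48 (adjusted p = 0.0413). Both were at far lower levels than their relatives. Slc25a13 had means of 281 in KO and 168 in WT, against 10972 and 14769 for Slc25a12. Ogdhl had means of 462 in KO and 329 in WT, against 34421 and 44827 for Ogdh. Me1, the cytosolic malic enzyme, and Slc25a1, the citrate carrier, both of use in fat synthesis, rose by 0.31 and 0.84 (adjusted p = 0.0314 and 0.0320). These last 3 calls were weak, since of the 8 fits that each left out 1 library Ogdhl did not pass in 7 (limma adjusted p up to 0.0905), Me1 in 6 (up to 0.0879) and Slc25a1 in 6 (up to 0.0859). Me2 missed without KO replicate 3 (0.0535). Within libraries the log2 ratios of Me2 to Me3, Slc25a13 to Slc25a12 and Ogdhl to Ogdh were 1.29, 1.16 and 0.86 higher in KO, each with no overlap (exact permutation p = 0.0286 and adjusted 0.0714 for each). Their rise stood beside the higher adipocyte, macrophage and fibroblast markers, whose part in it was not tested. The 25 ratios were chosen after values had been seen, 10 had groups apart and none passed after adjustment. With 4 libraries per genotype, a pass needed more ratios at the smallest p than these 10. Neither their p-values nor the lack of a pass is a test of the ratios.

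Of 19 further branched-chain amino acid genes 5 fell and none rose in limma (median log2 fold change -0.18, with 9 lower and 0 higher at an unadjusted p under 0.05). Besides Ppm1k these were Echs1, the enoyl-CoA hydratase of the valine and isoleucine arms, Acat1, the thiolase that ends the isoleucine arm, Oxct1, the ketone body transferase, and Slc43a1, a branched-chain amino acid transporter. Echs1 had 4491, 4443, 4152 and 4154 normalized counts in KO and 6012, 5549.6, 6632 and 5957 in WT and fell by 0.48 on the log2 scale (limma adjusted p = 0.00263). Acat1 had 12213, 13189, 11881 and 12221 in KO and 15409.7, 14319.9, 16730.5 and 15854 in WT and fell by 0.33 (adjusted p = 0.0103). Slc43a1 had 154, 142, 168 and 155 in KO and 315, 216, 240.1 and 334 in WT and fell by 0.81 (adjusted p = 0.0125). In all of these 3 genes the genotypes were apart. Oxct1 did not pass in 6 of the 8 fits that left out 1 library (limma adjusted p up to 0.106). Of the 19 genes 4 were called lower with library size alone, 3 on the fiber transcripts and 2 with depth as a covariate. None was called lower in limma without KO replicates 2 and 3 (8 at an unadjusted p under 0.05). Over all genes the shares called lower in these settings, in the same order, were 1.96, 0.983, 0.0855 and 0.262%. Propionate genes beyond Pcca and Pccb (Mcee, Mmut, Mmaa and Mmab) had log2 fold changes from -0.25 to 0.13, and none passed in limma, while 2 were lower at an unadjusted p under 0.05.

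Other mitochondrial genes are given for comparison with the 62.5% of the 40 genes that were called lower. Genes of complex I and its assembly (symbols starting Nduf) fell in 15 of 48 cases (median log2 fold change -0.23, and -0.06 with 2 called lower and 1 higher on the fiber transcripts). Of these 48 genes 46 had a log2 fold change below 0 (31 on the fiber transcripts). For 30 of the 48 each KO library lay below each WT library, and for 1 above. The counts below were 28 of the 40 genes and 8.54% of all genes. Mitochondrial ribosomal protein genes fell in 6 of 78 (median -0.08, which turned to 0.09 on the fiber transcripts, where 5 were called higher). None of the 13 mitochondrial DNA genes was called in limma and 1 was lower at an unadjusted p under 0.05 (median -0.07, which turned to 0.00 with library size alone and 0.10 on the fiber transcripts). On the fiber transcripts the branched-chain amino acid genes had a median of -0.16 and the cycle, pyruvate and shuttle genes -0.08. The median of all genes was 0.16 on the fiber transcripts and 0.07 with library size alone. Over all genes 3.79% were called lower with the deposited scaling. On the fiber transcripts 0.983% of all genes were called lower and 14.2% higher. The difference between these lists was not tested.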

How the data were processed

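RNA was sequenced after polyA selection from fresh frozen soleus. Per the paper and the submitters' processing notes, reads were trimmed (Trimmomatic 0.36) and checked (FastQC 0.11.5, MultiQC 1.0), and transcripts were quantified by Salmon 0.11.3 on GRCm39. Gene values came from tximport, counts of 5 or less were dropped, and DESeq2 was run in R 4.1.2. The signal deposited by the authors is DESeq2's normalized gene count, whose factors differ between genes as well as libraries. Their table of fold changes and p-values was not used.

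Because the values are no longer counts, limma 3.58.1 in R 4.3.3 was fitted to log2(normalized count + 1) with genotype alone, a mean-variance trend in the prior (4.59 prior degrees of freedom) and Benjamini-Hochberg adjustment over 16382 genes. A filter on a summed value above 5 removed none. A row without a name (0.0112 to 0.0150% of a library) was left out. Library totals were 32.3 to 33.1 M normalized counts in KO and 33.6 to 35.7 M in WT, with no overlap. Mitochondrial DNA genes made up 15.6 to 17.3% of a library. Depth was recovered from low values, of which 17.8 to 37.4% were whole reads within 0.01 reads, too few for a count test. Ratios of gene pairs were compared by exact two-sided permutation tests (Python 3.11.15, numpy 2.4.6, matplotlib 3.10.9). The fit was tested on simulated data.

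The 40 genes and all lists, and the ratios, were chosen with earlier results of these data known. Values per library are given for each called gene, for Cs, and for genes with groups apart and an absolute log2 fold change of at least 0.3, for up to 10 further pathway genes of smallest adjusted p, and always for Pdk4, Ppm1k and Klf15, apart from 1 gene not reported here. Genes that rose among the relatives, Oxct1 and the propionate genes were named after their values were seen. Sequences are from RefSeq (GRCm38.p6), another build than the authors' and used for promoters alone. Alternatives were pseudocounts of 0.5 and 5, filters, scalings, prior and robust fits, libraries left out, depth as a covariate, a replicate block and a threshold of 0.01, and scaling on Acta1, Ckm and Mb was added after seeing the data.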

Additional observations from a re-analysis of the deposited data

Results flagged for a closer look

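In groups of 4 libraries, a library was singled out when its gap to the nearest other, divided by the range of the group, passed Dixon's 95% critical value. This happened in 11 of 228 groups tested, and in 7 of the 80 groups of the 40 genes, while chance gives about 1 in 20. Mpc2 was higher in KO replicate 3 (6254 normalized counts, the others 5874 to 5893, gap over range 0.950). Pcx was lower in WT replicate 1 (1550.2, the others 1798 to 1835, 0.868). Pdk2 was higher in WT replicate 1 (19788, the others 18196 to 18302, 0.933). Suclg2 was lower in WT replicate 2 (4023, the others 4211 to 4248, 0.836). Bckdk was lower in WT replicate 2 (4508, the others 5136 to 5261, 0.833). Hibch was lower in WT replicate 1 (1552, the others 1733 to 1759, 0.875). Pccb was higher in KO replicate 4 (3141, the others 2703 to 2746, 0.901). Of these libraries WT replicate 1 came up for Pcx, Pdk2 and Hibch, and also for the log2 ratio of Pdk1 to Pdk2 (-1.90, the others -1.73 to -1.71, 0.899).

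The log2 ratio of Bckdk to Bckdha was higher in KO replicate 1 (-0.24, the others -0.39 to -0.37, 0.840). That of Cs to Acta1 was higher in KO replicate 2 (-4.97, the others -5.33 to -5.32, 0.976). Pck2, the mitochondrial phosphoenolpyruvate carboxykinase, was higher in KO replicate 3 (202 normalized counts, the others 186 to 187, 0.963), while its WT libraries ran from 129.9 to 264. The cause of these gaps was not tested.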

How the results depend on the processing

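The count of 25 genes called lower stayed the same with a pseudocount of 0.5 or 5, a minimum mean of 10, no filter, median-of-ratios scaling and a robust fit. Scaling on library size, with or without the 10 most abundant genes, gave 18 lower and 2 higher both times (medians -0.21 and -0.21). A prior variance without trend gave 9 (819 genes in all), an adjusted p under 0.01 gave 7 (440 in all), and scaling on Acta1, Ckm and Mb, chosen after seeing the data, gave 3 lower and 3 higher (2494 in all, median -0.12). Over all genes the share of calls that were higher was 57.6% with the deposited scaling, 79.9% with library size alone and 93.5% on Acta1, Ckm and Mb. Leaving out 1 library gave 15 to 24 genes lower, 0 to 1 higher, 662 to 1231 genes in all and medians of -0.31 to -0.25. Without KO replicates 2 and 3 there were 0 (164 in all), and with depth as a covariate 0 (58 in all), where fewer libraries or a term that moves with genotype raised the standard errors.

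Signs changed for Pdhb (0.0015 with library size alone, 0.093 on Acta1, Ckm and Mb), Dlat (0.0040 with library size alone, 0.00093 without the 10 most abundant genes, 0.010 without KO replicates 2 and 3, 0.096 on Acta1, Ckm and Mb), Pdhx (-0.10 with depth as a covariate), and Dlst (0.017) and Sucla2 (0.00021) on Acta1, Ckm and Mb. Apart from the choice of reference in the scalings, the cause was not tested.

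Replicate numbers showed no sign of pairing, since deviations of same-numbered KO and WT libraries correlated at -0.07 to -0.01 across genes. Such values cannot show whether same-numbered mice were littermates or handled together. With the replicate block 23 genes were called lower (median -0.29, 1278 genes in all), of which Pdp1 (adjusted p = 0.0124 from limma) was gained, while Idh2, Mdh2 and Pdha1 were lost. Of the further pathway genes named, Ogdhl and Oxct1 no longer passed with the block (0.0556 and 0.0530).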

Other observations

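Some values in neighbouring genes belong to no comparison above. Pdp2, the second pyruvate dehydrogenase phosphatase, had normalized counts of 332, 359.7, 285 and 362 in KO and of 398, 318, 891 and 793 in WT, so that WT replicates 3 and 4 stood above all other libraries, as they did for Pdk4. Gpt2, the mitochondrial alanine aminotransferase, had 704 and 730.4 in KO replicates 1 and 4, up to 1492 in KO replicates 2 and 3, which also held the most Myh4, and 844 to 1032 in WT. Both genes were picked after their values were seen, and neither passed (adjusted p = 0.156 and 0.836 from limma with Benjamini-Hochberg adjustment).

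The lactate dehydrogenase subunits, which link pyruvate and lactate, differed. Ldhb, the heart-type subunit, fell by 0.26 on the log2 scale with no overlap (36509 to 39657 in KO and 42334 to 49248 in WT, adjusted p = 0.0291 from limma), and Ldha, the muscle-type subunit, had 0.10 (adjusted p = 0.452). Ldhb did not pass with library size alone (-0.18, 0.0593), on Acta1, Ckm and Mb (-0.09, 0.326) or in 5 of the 8 fits that left out 1 library (up to 0.0885). The difference between the subunits was not tested.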
